A study of Homo sapiens with 6 samples.

Results

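The COP9 signalosome is a multi-subunit complex whose long-known subunits are encoded in human cells by the genes GPS1, COPS2, COPS3, COPS4, COPS5, COPS6, COPS7A, COPS7B and COPS8. All 9 of these genes, of 19775 genes with a probe set of their own, were measured here, through 19 probe sets that the array annotation pairs with 1 gene. The members are the named subunits of the complex, chosen by the measured shGankyrin minus shControl differences of these same arrays, which were known when the complex was taken up. The values below, and whether a member passed the threshold of the fit across all genes, are therefore a description, and no p-value is given for a member. The cells were SW480, a line grown from a human colon carcinoma. In the shGankyrin group (3 arrays) cells had received for 4 days a short hairpin RNA (shRNA) against gankyrin, the product of PSMD10, which helps to assemble the regulatory particle of the proteasome. In the shControl group (3 arrays) they had received a non-targeting shRNA for the same 4 days. Both groups are the same cell line, the number and sequence of the hairpins were not stated, and nothing in the labels says whether replicates were separate cultures. Spreads and p-values therefore cover the variation among these 6 arrays alone, and that variation may be technical.

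In RefSeq (GRCh38.p14) the genes lie at chr8:67043079-67062133 (COPS5), chr7:100088969-100092187 (COPS6), chr17:82050932-82057470 (GPS1), chr15:49122727-49155599 (COPS2), chr17:17246616-17281246 (COPS3), chr4:83035183-83075818 (COPS4), chr12:6724046-6731865 (COPS7A), chr2:231781671-231809253 (COPS7B) and chr2:237085889-237100474 (COPS8), so they are spread over 7 chromosomes. The signalosome removes the ubiquitin-like protein NEDD8 from cullins, the scaffolds of the cullin-RING ubiquitin ligases, and so takes part in the cycle by which these ligases are switched on, switched off and given new substrate adaptors. Its catalytic subunit is COPS5, a metalloprotease with an MPN domain. COPS6 carries the other MPN domain, without the catalytic residues. The remaining subunits are PCI-domain proteins, and COPS7A and COPS7B are paralogues that take the same place in the complex. The signalosome is built on the same plan as the lid of the proteasome and resembles the translation factor eIF3, which also has PCI and MPN subunits.

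PSMD10 served as the check of the labels. Its brighter probe set read 6.58, 6.47 and 6.30 in shGankyrin replicates 1 to 3, against 10.19, 10.23 and 10.15 in shControl replicates 1 to 3 (log2 signal), a difference of -3.74 ± 0.08 (SE, limma adjusted p = 6.81e-09). The design text at one point gives NFIL3 as the target. NFIL3 read 9.12, 9.06 and 9.03 in shGankyrin arrays and 9.21, 9.32 and 9.47 in shControl arrays. Its difference was -0.26 ± 0.07 (SE, limma adjusted p = 0.0281), and this call was lost under 6 of 16 alternatives. The array medians ran from 4.2 to 4.25. A level of 4.48, the 95th percentile of the means of 107 olfactory receptor probe sets, describes the low end of the scale. Of 11 epithelial markers 9 lay above it on every array, the exceptions being CDH17 and CDX2. Also above it on every array were the leukocyte markers LYZ (mean 12.29), ITGAM (5.72) and CD3E (4.97). The same held for the endothelial markers PECAM1 (5.08) and TEK (4.89) and the fibroblast markers COL1A1 (7.12) and DCN (4.66). The other measured markers of these types did not lie above it on every array, among them PTPRC (2.65), CDH5 (2.51) and COL1A2 (3.37). The mean level of the 11 epithelial markers was 8.22 to 8.25 over shGankyrin arrays and 8.40 to 8.43 over shControl arrays. The mean of the 8 fibroblast markers (2 of 8 above the low end) was 3.98 to 4.03 in shGankyrin arrays and 3.92 to 3.93 in shControl arrays. That of the 6 endothelial markers (2 of 6) was 3.52 to 3.71 in shGankyrin arrays and 3.51 to 3.57 in shControl arrays. That of the 6 measured leukocyte markers (3 of 6) was 5.52 to 5.63 in shGankyrin arrays and 5.43 to 5.54 in shControl arrays. The part of these shifts in the signalosome values was not tested. All 6 arrays are labelled as SW480 cells, and whether any other cell type was present was not tested. In such bulk samples fewer cells with a marker and less RNA per cell cannot be told apart.

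Most signalosome transcripts had slightly higher means after gankyrin knockdown, and 3 of the 9 passed the threshold as higher. Each gene was represented by its brightest probe set past a filter on dim probe sets, and all 9 members passed it. The difference between the shGankyrin and shControl means was above 0 for 8 of the 9 genes and below 0 for COPS7A. It ranged from -0.10 to 0.31 on the log2 scale with a median of 0.13, against a median of -0.02 over the 14199 genes tested, of which 6577 were above 0. In the fit across all genes (limma, Benjamini-Hochberg adjusted p under 0.05) 3 of the 9 passed as higher, COPS4, COPS5 and COPS8, and 0 as lower. Across all genes 8.13% passed as higher, 14.3% as lower and 22.5% in either direction. Because the members were taken up with this contrast known, nothing is read from that count. In 4 of the 9 genes, the same 3 and GPS1, every shGankyrin value lay above every shControl value, which held for 15.7% of all genes. In 0 of the 9 did every shGankyrin value lie below, against 24.6% of all genes, and 40.3% of all genes had groups apart in either direction.

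**Figure D1:**
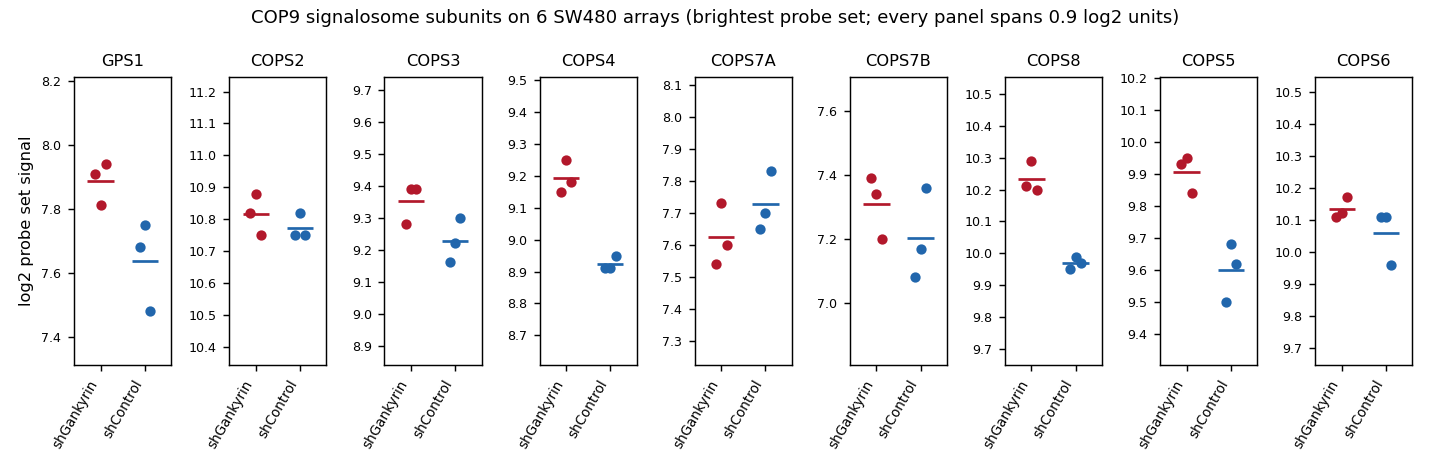
Log2 probe set signal (vertical axis, every panel spanning 0.9 log2 units) of the 9 COP9 subunits in 3 shGankyrin arrays (red, left) and 3 shControl arrays (blue, right), with bars at the group means. The groups are separate for GPS1, COPS4, COPS8 and COPS5 and overlap for the other genes.

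In the catalytic module, COPS5 had the largest difference of the 9 genes with all arrays, though not without shControl replicate 1, where GPS1 was at 0.27, COPS4 at 0.263 and COPS5 at 0.257, nor without shGankyrin replicate 2, where GPS1 was at 0.288 and COPS5 at 0.285. This subunit, also called JAB1, holds the zinc-dependent active site that cleaves NEDD8 from cullins. Its single probe set (201652_at) read 9.93, 9.95 and 9.84 in shGankyrin replicates 1 to 3 and 9.50, 9.68 and 9.62 in shControl replicates 1 to 3. Every shGankyrin value of COPS5 thus stood above every shControl value. The means were 9.91 ± 0.06 in shGankyrin arrays and 9.60 ± 0.09 in shControl arrays (SD, n = 3 each), a difference of 0.31 ± 0.06 (SE), or 1.24-fold. This absolute difference was larger than that of 80.3% of the genes tested. Leaving out any 1 array left the COPS5 difference between 0.26 and 0.35, and in the fit over genes it was called under every alternative tried. In the fit over probe sets COPS5 was not called without shGankyrin replicate 1, 2 or 3 or with no intensity trend. Only 1 member probe set passed without shControl replicate 1, with each array centred on its own median or with the replicate block. Without shControl replicate 2 the number was 2. The genes that passed there are not given here, so COPS5 may be lost in these fits too.

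COPS6, the partner of COPS5 in the MPN heterodimer, differed little. Its brighter probe set (201405_s_at) read 10.11, 10.12 and 10.17 in shGankyrin arrays and 10.11, 10.11 and 9.96 in shControl arrays. Here 2 of the 3 shControl values equalled the lowest shGankyrin value, and the difference of 0.07 ± 0.06 (SE) fell to 0.02 without shControl replicate 3. The dimmer COPS6 probe set (213504_at) read 8.69, 8.71 and 8.62 in shGankyrin arrays against 8.54, 8.49 and 8.67 in shControl arrays, with overlapping groups and a difference of 0.11. The gap between the COPS5 and COPS6 differences was not tested.

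Among the PCI subunits, COPS4 had groups that lay apart. COPS4 is one of the subunits that contact the cullin and its RING partner when a ligase docks. Its probe set 218042_at read 9.15, 9.25 and 9.18 in shGankyrin arrays and 8.91, 8.91 and 8.95 in shControl arrays. All 3 shGankyrin values were higher, and the means were 9.19 ± 0.05 in shGankyrin arrays and 8.92 ± 0.02 in shControl arrays (SD, n = 3 each). The difference was 0.27 ± 0.06 (SE), or 1.21-fold. The COPS4 call was lost without shGankyrin replicate 2, where the difference was 0.24. A further COPS4 probe set (237649_at) stayed between 1.74 and 2.15 on all arrays, below the filter limit of 3.6, and says nothing of the gene's change.

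COPS8, a small PCI subunit, was measured by 6 probe sets. The brightest (202141_s_at) read 10.21, 10.29 and 10.20 in shGankyrin arrays and 9.95, 9.99 and 9.97 in shControl arrays, again without overlap. Its difference was 0.26 ± 0.05 (SE), or 1.20-fold. The other 3 COPS8 probe sets past the filter also had every shGankyrin value above every shControl value. Probe set 202142_at read 9.08, 9.13 and 9.0 in shGankyrin arrays against 8.85, 8.99 and 8.85 in shControl arrays, a difference of 0.17, and 214260_at read 5.24, 5.46 and 5.37 in shGankyrin arrays against 5.0, 5.08 and 5.17 in shControl arrays, a difference of 0.27. The fourth, 202143_s_at, read 9.63, 9.61 and 9.57 in shGankyrin arrays against 9.40, 9.54 and 8.58 in shControl arrays. Its difference of 0.43 rested on the low value in shControl replicate 3 and was 0.13 without that array. COPS8 was not called when its 202142_at probe set stood for the gene in place of 202141_s_at. The last pair of COPS8 probe sets, between 2.83 and 3.40 on all arrays, lay below the filter.

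GPS1, also called CSN1, is a PCI protein first described as a suppressor of G protein signalling. Its probe set (217782_s_at) read 7.91, 7.81 and 7.94 in shGankyrin arrays and 7.68, 7.75 and 7.48 in shControl arrays. The groups did not overlap. The difference of 0.25 ± 0.09 (SE) did not pass, and the SD of the shControl arrays was 0.14, beside 0.02 for COPS4 and for COPS8. Without shControl replicate 3 the GPS1 difference was 0.17. GPS1 passed with quantile normalization (0.28).

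COPS2 and COPS3 are PCI subunits too, COPS2 being another contact of the cullin and RING partner. COPS2 (202467_s_at) was among the brightest, at 10.82, 10.88 and 10.75 in shGankyrin arrays and 10.75, 10.82 and 10.75 in shControl arrays. These groups shared 2 of their values, and the difference was 0.04 ± 0.05 (SE). A second COPS2 probe set (209838_at) read 7.26, 7.29 and 7.23 in shGankyrin arrays against 7.21, 7.08 and 7.30 in shControl arrays, with a difference of 0.06. COPS3 (202078_at) read 9.28, 9.39 and 9.39 in shGankyrin arrays against 9.16, 9.22 and 9.30 in shControl arrays. Only the lowest shGankyrin value fell within the shControl range of COPS3, and the difference of 0.13 ± 0.06 (SE) passed the threshold without shControl replicate 3 (0.16).

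The paralogues COPS7A and COPS7B gave no shared direction. COPS7A (209029_at) read 7.54, 7.73 and 7.60 in shGankyrin arrays and 7.65, 7.70 and 7.83 in shControl arrays. The ranges overlapped, and the difference was -0.10 ± 0.08 (SE). COPS7B was read with opposite signs by its probe sets. On the brighter (219997_s_at) it was at 7.39, 7.34 and 7.20 in shGankyrin arrays against 7.08, 7.17 and 7.36 in shControl arrays, a difference of 0.11 with overlapping groups. On the next (225696_at) it was at 6.62, 6.66 and 6.63 in shGankyrin arrays against 6.75, 6.77 and 7.06 in shControl arrays, where every shGankyrin value was below every shControl value. That difference was -0.22, and -0.12 without shControl replicate 3. A dim COPS7B probe set (243628_at) lay between 2.65 and 3.28 and below the filter. With the COPS7B probe sets averaged the difference was -0.06, so no direction can be given for this gene.

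**Figure D2:**
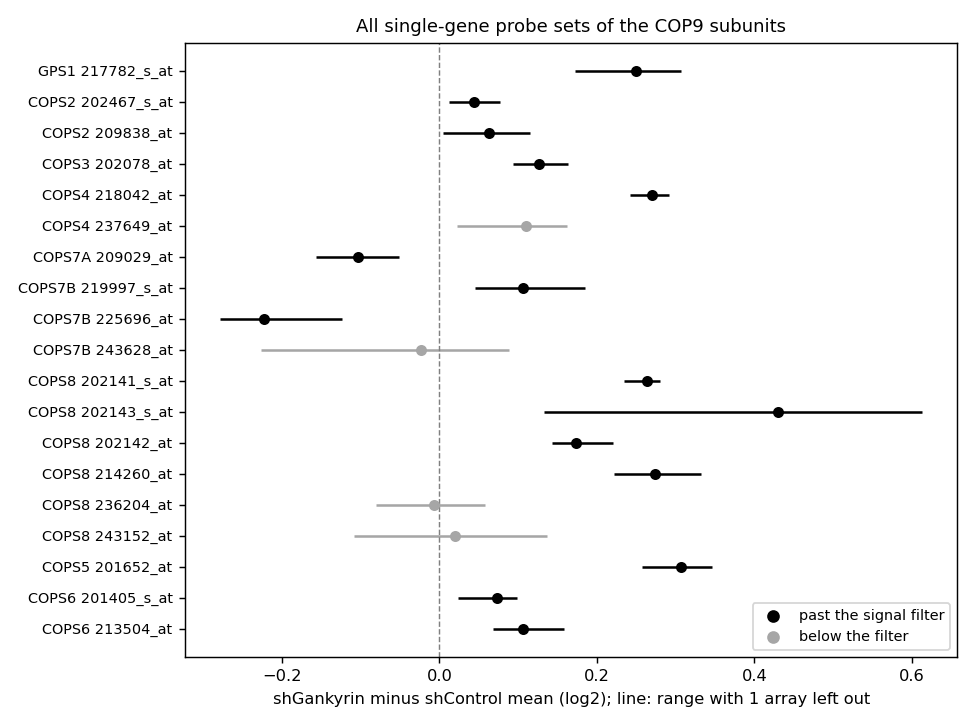
Difference between shGankyrin and shControl means (log2, horizontal axis) for all 19 single-gene probe sets of the COP9 subunits, with lines spanning the differences when 1 array is left out. Of the 15 probe sets past the filter (black) 13 lie above 0 and 2 below it, the latter being COPS7A and a COPS7B probe set.

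Over probe sets in place of genes the picture was similar in direction. With all arrays the same 3 genes were called, and calls were lost under more alternatives. Of the 15 member probe sets past the filter 13 had a difference above 0. All 15 kept their sign when any 1 array was left out. The members were chosen by these differences, and COPS8 alone gives 4 of the 15 probe sets. Shares over all probe sets were not taken for these counts of signs, so nothing is read from them. The groups did not overlap in 7 of the 15 with the shGankyrin values higher and in 1 with them lower, and overlapped in 7. Over all probe sets past the filter the shGankyrin values were all higher in 15.5% and all lower in 20%. In a fit over all 32759 probe sets past the filter 3 member probe sets passed as higher, 1 each for COPS4, COPS5 and COPS8, and 0 as lower, beside 4.05% of all probe sets passing as higher, 6.54% as lower and 10.6% in either direction. That count was 0 without shGankyrin replicate 1, 2 or 3, 1 without shControl replicate 1, 2 without shControl replicate 2 and 4 without shControl replicate 3. Shares over all probe sets were not taken for these fits. In the fit over genes 1154 of all genes passed as higher with all arrays. Without shGankyrin replicates 1, 2 and 3 in turn 630, 613 and 661 did. Without shControl replicates 1, 2 and 3 in turn 909, 917 and 1808 did. Nothing is therefore read from the member counts. RefSeq lists 3 pseudogenes named for COPS8, 2 for COPS5 and 1 for COPS3, and whether their transcripts reach these probes was not tested.

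The arrays can also be read one by one. After subtracting each gene's mean over the 6 arrays, the median of the 9 members was 0.092, 0.085 and 0.087 in shGankyrin replicates 1 to 3 and -0.130, -0.070 and -0.108 in shControl replicates 1 to 3. The same median over all genes was -0.017, -0.015 and -0.013 in shGankyrin arrays and -0.017, 0.003 and 0.062 in shControl arrays. The members' median was thus above 0 on every shGankyrin array and below 0 on every shControl array. Because the members were chosen by the differences between these same arrays, nothing is read from these signs. The size of a difference this small depends on how arrays are scaled. With each array centred on the median of the tested genes, the median difference over all genes was 0.08 in place of -0.02, and that over members was 0.23. Under that scaling 5 of the 9 members passed as higher, beside 2274 of all 14199 genes in place of 1154, and nothing is read from that count. COPS7A was at -0.003, and 60.7% of all called genes were higher in place of 36.2%. Centring shifts every gene on an array alike, so the members' median less that of all genes, 0.15, is the same under both scalings by construction.

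Over the 6 arrays, the genes whose mean-centred profile lay nearest to that of COPS5 were SPATC1L, the centromere protein gene CENPW and RNPEP, which encodes aminopeptidase B, at Euclidean distances of 0.046, 0.054 and 0.055 on the log2 scale. CENPW read 9.02, 9.02 and 8.88 in shGankyrin arrays against 8.61, 8.77 and 8.69 in shControl arrays.

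Starts of the member genes were examined as a feature that the choice of members did not use. RefSeq (GRCh38.p14) windows were matched for 8 of the 9 genes, COPS5 being the other, and gave 13 windows of the 250 bases before an annotated start. Their GC content was 54.0% to 82.4% with a median of 64.0%, against a median of 58.0% over all 35116 windows. Words were searched on both strands. The GC box GGGCGG was in 8 of the 13 member windows and in 42.6% of all windows, and CCAAT in 5 of the 13 and in 32.0%. The antioxidant response element word TGACNNNGC was in 5 of the 13, those of COPS3, COPS7A, COPS8 and GPS1, and in 10.9% of all windows. The ETS word CCGGAAG was in 3 of the 13 (GPS1, COPS7A and COPS7B) and in 8.52%, and the E-box CACGTG in 1 (COPS7A) and in 6.34%. Neither the CRE word TGACGTCA (1.65% of all windows) nor TATAAA (10.7%) was in any of the 13. These matches are descriptions of letters and not of bound sites, and the words were picked with the member windows in view.

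The windows of COPS4 and COPS8, the called genes with a window, and of COPS7A, the gene with the negative difference, are shown with the words found in capitals. That of COPS4 lies at chr4:83034933-83035182 on the plus strand and holds a CCAAT and a GC box. That of COPS8 lies at chr2:237085639-237085888 on the plus strand and holds a CCAAT box on the other strand, a GC box and TGACNNNGC. The outer window of COPS7A, at chr12:6723796-6724045 on the plus strand, holds a CCAAT and the ETS word.
COPS4: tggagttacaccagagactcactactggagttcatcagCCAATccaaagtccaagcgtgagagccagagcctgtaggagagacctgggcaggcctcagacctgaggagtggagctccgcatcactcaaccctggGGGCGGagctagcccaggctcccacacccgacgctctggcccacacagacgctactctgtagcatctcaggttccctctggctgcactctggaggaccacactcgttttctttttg
COPS8: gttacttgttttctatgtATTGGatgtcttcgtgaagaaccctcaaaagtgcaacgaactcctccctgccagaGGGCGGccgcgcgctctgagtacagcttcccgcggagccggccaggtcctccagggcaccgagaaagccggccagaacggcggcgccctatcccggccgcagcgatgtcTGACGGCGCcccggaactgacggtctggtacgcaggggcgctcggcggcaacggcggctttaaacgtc
COPS7A: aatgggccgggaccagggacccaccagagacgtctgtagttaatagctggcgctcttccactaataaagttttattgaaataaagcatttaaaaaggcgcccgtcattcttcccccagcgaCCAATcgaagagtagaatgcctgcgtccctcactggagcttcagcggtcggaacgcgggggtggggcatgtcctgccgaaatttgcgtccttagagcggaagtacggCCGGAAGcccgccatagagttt
The CCAAT word stands in all 3 windows. The GC box is in a window of 7 of the 8 matched genes, COPS7A (in its other window), COPS3, COPS6, COPS7B and GPS1 among them, and is missing only from that of COPS2.

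The substrates and helpers of the signalosome were described in the same way, and differences between lists were not tested. These lists, and those of the lid and eIF3 below, were chosen with earlier results known. Adjusted p-values of their genes are therefore descriptions too. Of 28 cullin, RING partner, adaptor and NEDD8 cycle genes 26 were tested. In limma 2 rose and 1 fell, against 8.13% and 14.3% of all genes, and the median difference was 0.03. CUL2, the cullin of the VHL ligases, was at 0.26 ± 0.07 (SE, adjusted p = 0.0214) and the adaptor elongin B gene ELOB at 0.17 ± 0.05 (adjusted p = 0.0385), while DCUN1D2, of a family that promotes NEDD8 conjugation, was at -0.33 ± 0.08 (adjusted p = 0.0168). The number of rises was 0 without shGankyrin replicate 1, 2 or 3 or shControl replicate 1 and 6 without shControl replicate 3, the fall of DCUN1D2 was lost without shGankyrin replicate 1 or 3, and CUL2 was at -0.04 when _x_at and _s_at probe sets were passed over. Of 8 tested genes for proteins that work with the signalosome or with the CUL4 ligases it binds, 2 rose and 0 fell, with a median of 0.13. ERCC8, the substrate receptor CSA of a CUL4 ligase, read 6.95, 7.07 and 6.98 in shGankyrin arrays against 6.47, 6.40 and 6.35 in shControl arrays, a rise of 0.59 ± 0.08 (SE, adjusted p = 0.000985) that passed under every alternative tried. SKP2, an F-box protein, was at 0.32 ± 0.09 (SE, adjusted p = 0.0328), and its call was lost without shGankyrin replicate 1, 2 or 3 or shControl replicate 1 or 2, with each array centred on its own median and with no intensity trend. With its probe sets averaged SKP2 was at 0.77 (limma adjusted p = 0.0742). COPS9, the small acidic subunit that joins the complex, was at -0.01 (adjusted p = 0.934). Without shControl replicate 3 the rises in this list numbered 4, and without any shGankyrin replicate or shControl replicate 1 they numbered 1. Rises over all genes numbered 1154 with all arrays. Without shGankyrin replicates 1, 2 and 3 in turn they numbered 630, 613 and 661. They numbered 909 without shControl replicate 1 and 1808 without shControl replicate 3.

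**Figure D3:**
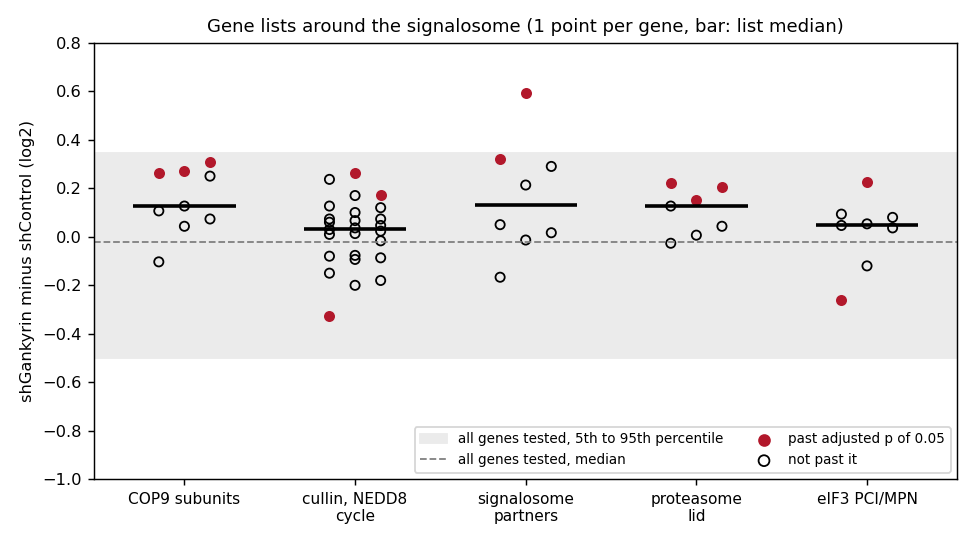
Difference between shGankyrin and shControl (log2, vertical axis), 1 point per tested gene, for the COP9 subunits and the other lists, with bars at list medians; filled points passed the threshold. The grey band spans -0.50 to 0.34, the 5th to 95th percentiles of all genes, and holds all 9 signalosome genes.

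The proteasome lid and eIF3 offer the nearest relatives in build. Of 7 tested lid genes 3 rose and 0 fell, with a median of 0.13, and of 8 tested eIF3 genes 1 rose and 1 fell, with a median of 0.05, beside 8.13% of all genes that rose and 14.3% that fell. The lid subunits that passed were SEM1 (0.20 ± 0.04 SE, adjusted p = 0.00832), PSMD6 (0.22 ± 0.06, adjusted p = 0.0200) and the lid's deubiquitinase PSMD14 (0.15 ± 0.05, adjusted p = 0.0362) in limma. The PSMD14 call was lost under 8 of 16 alternatives, among them each shGankyrin replicate, shControl replicate 1 or shControl replicate 2 left out, with adjusted p up to 0.142, and the PSMD6 call under 5 of 16, with adjusted p up to 0.0939. Without shGankyrin replicate 1 or 2 or shControl replicate 1 only 1 lid gene rose. Over all genes the rises then numbered 630, 613 and 909 in that order, against 1154 with all arrays. Structural counterparts were both tested for 6 signalosome genes. COPS5 at 0.31 stood beside PSMD14 at 0.15, the other JAMM metalloprotease, and GPS1 at 0.25 beside PSMD6 at 0.22. COPS4 at 0.27 stood beside PSMD12 at 0.04 (adjusted p = 0.527), and COPS8 at 0.26 beside PSMD8 at -0.03 (adjusted p = 0.774). COPS3 at 0.13 stood beside PSMD3 at 0.01 (adjusted p = 0.971), and COPS2 at 0.04 beside PSMD11 at 0.13 (adjusted p = 0.0689). The gaps within these pairs were not tested. In eIF3, EIF3E was at 0.23 ± 0.03 (SE, adjusted p = 0.00129) and EIF3A at -0.26 ± 0.05 (adjusted p = 0.00546) in limma; both calls were lost when _x_at and _s_at probe sets were passed over, and 2 eIF3 genes fell without shControl replicate 3.

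**Figure D4:**
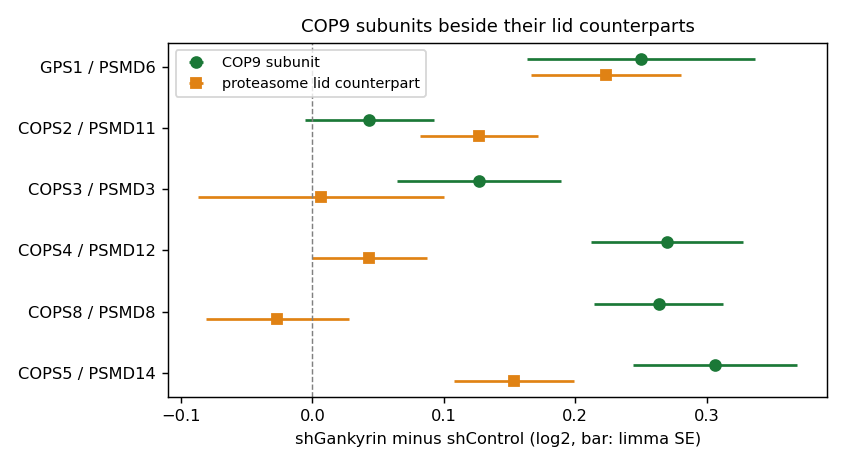
Difference between shGankyrin and shControl (log2, horizontal axis, bars are limma standard errors) for 6 COP9 subunits (circles) and their counterparts in the proteasome lid (squares). The COPS4 and COPS8 values stand at 0.27 and 0.26 beside 0.04 and -0.03 for PSMD12 and PSMD8.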

How the data were processed

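Gene expression was measured on 6 Affymetrix arrays hybridised with biotin-labelled cRNA from 6 ug of total RNA. The authors deposited log2 signals for 54675 probe sets, the log2 scale being read from their range of 1.29 to 13.68. MAS5 is named in the submitters' processing notes, without a role or version, and whether it or another method summarised the probes is not settled, which limits what low signals and small differences mean. No further normalization was applied. Probe sets were named from the platform annotation, updated through Entrez identifiers to RefSeq symbols. Left out were 62 control probe sets and, by mean over all arrays, the dimmest 40% of the rest (limit 3.6). Each gene was taken by its brightest single-gene probe set.

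Differences are shGankyrin minus shControl, 3 arrays each, from limma 3.58.1 in R 4.3.3 (two-sided; lmFit, then eBayes with an intensity trend). P-values were adjusted by Benjamini-Hochberg across 14199 genes, and the threshold was 0.05. The number of arrays limits the precision. An exact permutation test of 3 against 3 arrays cannot go below p = 0.1. The members and gene lists were chosen with earlier results of these data known, so no p is given for the members. The p-values given for genes of the other lists are descriptions for the same reason. Named genes are the members, PSMD10, NFIL3, lid counterparts, up to 4 called genes or the 2 of smallest p of each other list, and the 3 genes nearest to the member of largest difference; COPS9 was added after its values were seen. The fit was tested on simulated data. Alternatives covered each array left out, the filter, the probe set rule, scaling, the variance model and the replicate block.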

Additional observations from a re-analysis of the deposited data

How the results depend on the processing

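Over 16 alternatives for each of the 9 signalosome genes (144 values), 136 kept their direction and their side of the threshold. The 3 calls held except that of COPS4 without shGankyrin replicate 2 and that of COPS8 when _x_at and _s_at probe sets were passed over. COPS3 passed without shControl replicate 3 and GPS1 with quantile normalization, and both passed with each array centred on the median of the tested genes, an alternative chosen after seeing the data. COPS7B reversed to -0.058 with probe sets averaged and to -0.22 with _x_at and _s_at probe sets avoided. The cause of these changes was not tested.

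Leaving out 1 array at a time gave 613 to 1808 genes higher and 1071 to 2353 lower over all genes, 0 to 4 signalosome probe sets higher, 0 to 6 genes of the cullin and NEDD8 list higher and 0 to 1 lower, 1 to 4 signalosome partners higher, 1 to 3 lid genes higher and 1 to 2 eIF3 genes lower, and a signalosome median of 0.10 to 0.17. With probe sets averaged 1 cullin list gene and 1 partner were higher and 0 eIF3 genes lower. With _x_at and _s_at probe sets avoided 1 cullin list gene was higher and 0 eIF3 genes were higher or lower. With each array centred on its own median 1 signalosome probe set, 0 cullin list genes, 1 partner and 1 lid gene were higher. With quantile normalization 4 cullin list genes were higher, 2 eIF3 genes lower, and the signalosome median was 0.15. With no intensity trend 0 signalosome probe sets, 1 partner and 0 lid genes were higher. Centring on the median of the tested genes gave 2274 genes, 5 signalosome genes, 6 signalosome probe sets, 7 cullin list genes, 4 partners and 4 eIF3 genes higher, 0 cullin list and 0 eIF3 genes lower, and a signalosome median of 0.23.

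Reversals among the other named genes were small: PSMD3 at -0.038 without shGankyrin replicate 2, -0.045 without shControl replicate 1, -0.035 without shControl replicate 2 and -0.01 with arrays centred on their medians (-0.045 to 0.10 with 1 array left out), PSMD8 at 0.023 without shControl replicate 2 and 0.073 with centring on the tested genes (-0.062 to 0.023 with 1 array left out), PSMD12 at -0.045 with probe sets averaged, and PSMD11 at -0.047 and CUL2 at -0.037 with _x_at and _s_at probe sets avoided.

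The labels do not say whether the replicate numbers pair the arrays. Deviations of same-numbered arrays correlated at 0.020, 0.108 and -0.006, and 1 of 3 shGankyrin arrays, replicate 2, correlated best with its own number. With 3 arrays in each group this check cannot exclude a pairing. With the replicate block 3 signalosome genes and 1 signalosome probe set were higher; the gene counts of the lists stayed within 1.5 times.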
